A study of Macaca mulatta with 21 samples.

Results

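The genes described here encode the enzymes that write, copy and erase 5-methylcytosine in DNA, read as messenger RNA in rhesus macaque cell lines. They are the methyltransferase genes DNMT1, DNMT3A and DNMT3B, their catalytically inactive partner DNMT3L, the maintenance cofactor UHRF1, the dioxygenase genes TET1, TET2 and TET3, and the glycosylase gene TDG. Members were chosen by name, and every probe set that the array's annotation pairs with 1 of these 9 symbols was taken. This gave 13 of the 52865 probe sets, for 8 of the 9 genes. In RefSeq's table of the rhesus assembly all lie on autosomes: DNMT1 and UHRF1 on chromosome 19, DNMT3A and TET3 on 13, DNMT3B on 10, TET1 on 9, TET2 on 5 and DNMT3L on 3. No probe set carried the symbol TDG, and TDG was not analysed here.

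The study compared rhesus pluripotent lines of different origin with each other and with skin fibroblasts, under a title on X chromosome inactivation. CRES-3 (female) and CRES-1 (male) are embryonic stem cell lines from blastocysts made by somatic cell nuclear transfer, or cloning. RiPS2, RiPS3 and RiPS1 are induced pluripotent lines made from skin fibroblasts with retroviral OCT4, SOX2, Klf4 and cMYC. RiPS2 came from a female donor 10 years old, RiPS3 from a female donor 8 years old, and RiPS1 from a male fetus. ORMES23 (male) is the embryonic stem cell line derived from an in vitro fertilised blastocyst, and the fibroblasts came from the skin of a female 8 years old. Each line has 3 arrays (A, B and C) that the labels call biological replicates. Each line is 1 derivation, so every test speaks for these lines and not for cloning or reprogramming in general. All lines, the fibroblasts included, grew on mouse embryonic fibroblast feeders.

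DNMT3A and DNMT3B place methyl groups on unmethylated CpG sites and are known for high expression in the early embryo and in pluripotent cells. DNMT1, guided by UHRF1 to newly replicated DNA, copies existing methylation onto the daughter strand. The TET enzymes oxidise 5-methylcytosine, and TDG excises the oxidised bases so that base excision repair can restore unmodified cytosine.

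The values are log2 signals, and all levels and differences below are on that scale. The array medians lay between 4.98 and 5.14, so a level under 5 lies near background, and a gene entered the tests if 3 or more arrays read at least 5. Of the 8 measured genes 7 passed. A call needed an adjusted p under 0.05 (limma, Benjamini-Hochberg over the 11143 genes tested) and a change of at least 2-fold, and "rose" and "fell" are used of called genes alone. Where the dimmer line averaged under 5, a fold is a lower bound counted from 5. Levels of different probe sets are not set against each other, because each probe set has its own brightness.

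The pluripotent identity of the lines was checked with 9 measured markers, whose mean level was 9.20 to 9.63 on the 18 pluripotent arrays and 4.14 to 4.23 on the fibroblast arrays. All 9 markers averaged under 5 in the fibroblasts, and 7 were called higher in all 6 lines, ZFP42 and CDH1 being the others. The 12 fibroblast markers averaged 6.41 to 7.40 on the pluripotent arrays and 10.14 to 10.21 on the fibroblast arrays. Of these, COL1A1, COL1A2, PRRX1, FAP, LUM and TNC were called lower in all 6 lines. COL3A1, COL6A3, THY1, TWIST1, FBLN1 and DCN were not, and DCN had a mean difference of 0.13. Markers of differentiated derivatives varied within lines. The mean of 6 endoderm markers was 9.14, 7.64 and 7.05 on ORMES23 arrays A, B and C, against 5.90, 6.14 and 5.96 on the fibroblast arrays. PAX6, the 1 neural ectoderm marker measured, varied more, with 7.42, 3.69 and 7.74 in RiPS2 and 3.18, 6.65 and 6.94 in ORMES23, against 5.22, 5.64 and 5.60 in the fibroblasts. The part of such derivatives in the results below was not tested. In bulk RNA, fewer cells of a type and less RNA per cell cannot be told apart.

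Against the fibroblasts, 4 of the 7 tested genes rose in all 6 pluripotent lines. They were DNMT3B, DNMT3A, TET1 and TET3. DNMT1 also rose in RiPS1 and RiPS3, which gave 5 of 7 calls in those lines and 4 of 7 in CRES-3, CRES-1, RiPS2 and ORMES23, and none fell. Over all genes, the share called higher was 19.1% in CRES-3, 16.4% in CRES-1, 17.2% in RiPS2, 18.3% in RiPS3, 19.3% in RiPS1 and 18.5% in ORMES23. The share called lower was 14.2% in CRES-3, CRES-1 and RiPS3, 14.6% in RiPS2, 13.5% in RiPS1 and 14.1% in ORMES23. In every one of the 6 lines 12.7% of the genes were called higher, or 1411 genes. When every probe set was fitted, 8 of the 12 member probe sets that passed rose in RiPS3 and RiPS1 and 7 of 12 in the other 4 lines. None of the 12 fell, so these are also the counts called in either direction. Of all probe sets, 31.6% were called in either direction in CRES-3, 27.8% in CRES-1, 29.6% in RiPS2, 30.1% in RiPS3, and 30.7% in both RiPS1 and ORMES23. The median log2 difference over the 7 members lay between 1.82 and 2.39 by line, against 0.02 to 0.05 over all genes. All 6 comparisons use the same 3 fibroblast arrays, so their agreement is not independent.

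**Figure D1:**
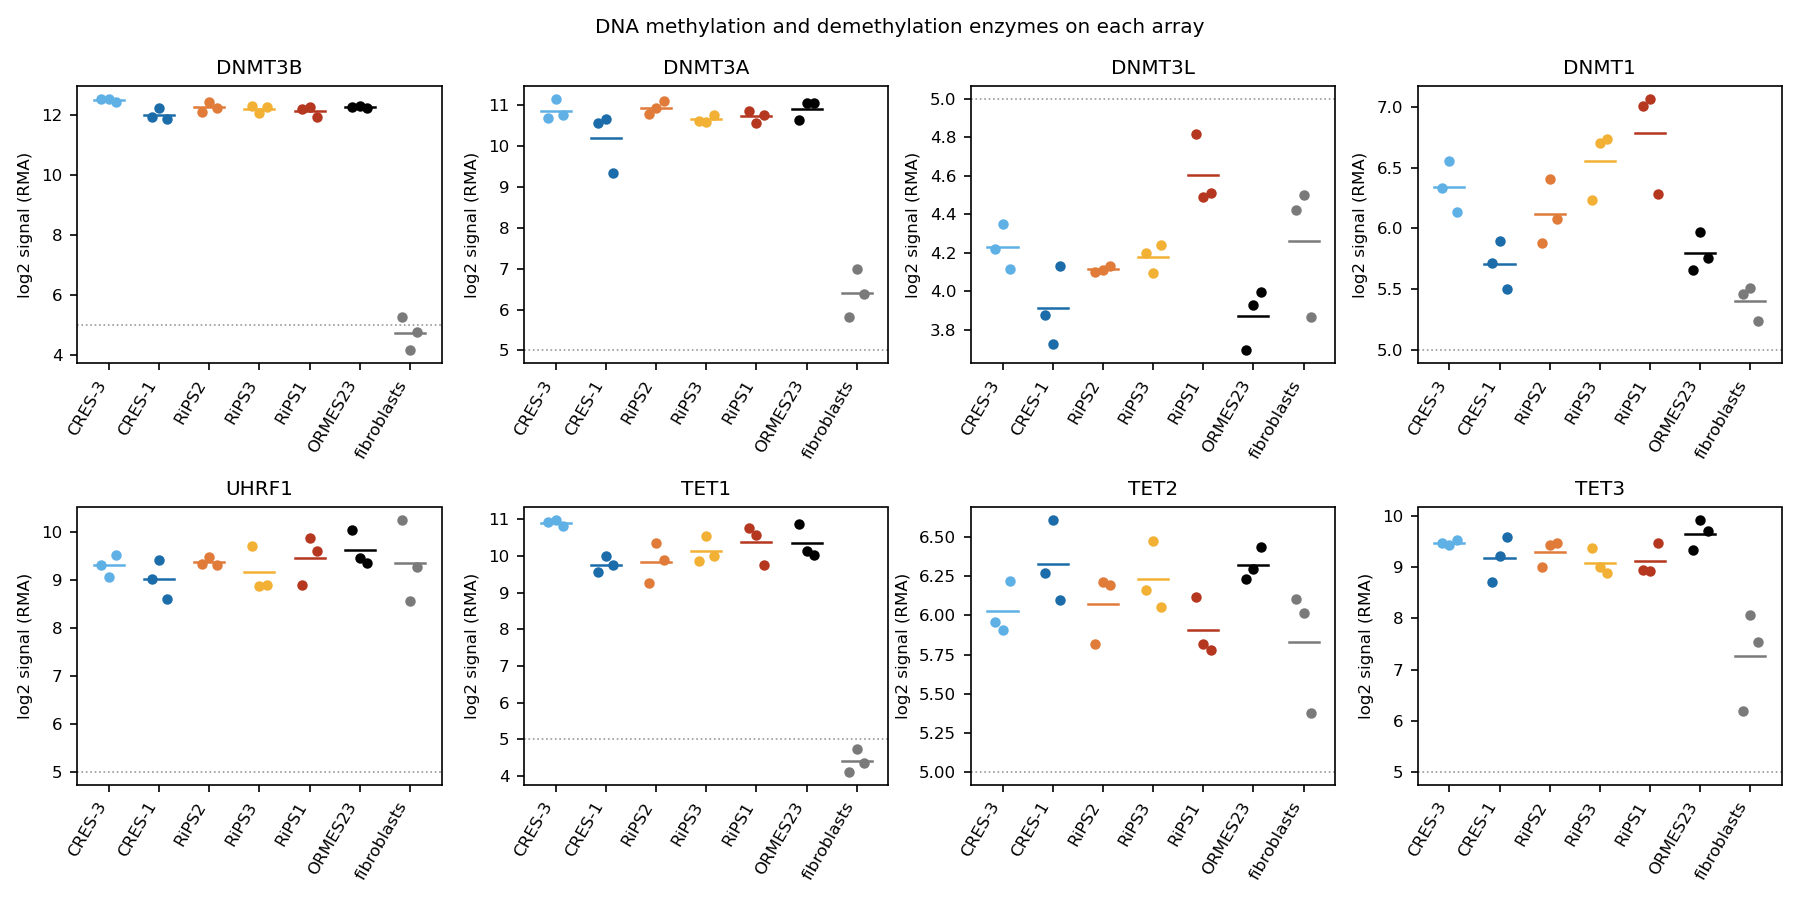
Log2 signal on the vertical axis of each array (points) and the mean of each line (bars) for the brightest probe set of 8 genes, with the 6 pluripotent lines left of the fibroblasts and the dotted line at the testing limit of 5. DNMT3B, DNMT3A and TET1 separate the fibroblasts from every pluripotent array, TET3 does so with a wider fibroblast spread, and DNMT3L lies under 5 on all arrays. The vertical scale differs between panels.

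Among the de novo enzymes, DNMT3B lay far above its fibroblast reading in every line. Its level was 12.54, 12.52 and 12.43 on CRES-3 arrays A, B and C, and 11.94, 12.22 and 11.87 on those of CRES-1. It was 12.08, 12.43 and 12.24 in RiPS2, 12.29, 12.06 and 12.26 in RiPS3, and 12.20, 12.27 and 11.94 in RiPS1. ORMES23 had 12.27, 12.29 and 12.24, against 5.26, 4.14 and 4.77 in the fibroblasts. All 18 pluripotent arrays thus lay within a narrow band far above the fibroblasts, only 1 of whose arrays reached 5. The log2 difference from the fibroblasts lay between 7.29 in CRES-1 and 7.78 in CRES-3 (SE 0.19 each). This is a rise of at least 129-fold in CRES-1 and at least 181-fold in CRES-3.

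Within the pluripotent lines DNMT3B means spanned 0.49, in the order CRES-3 (12.50), ORMES23 (12.26), RiPS2 (12.25), RiPS3 (12.20), RiPS1 (12.14) and CRES-1 (12.01). Neighbours in this order overlapped in their arrays except CRES-3, whose 3 arrays all lay above those of ORMES23. The difference of CRES-3 from ORMES23 was 0.23 (SE 0.19, adjusted p = 0.599, limma) and was not called. Its 95% interval was -0.17 to 0.64.

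DNMT3A, the other active de novo methyltransferase, has 2 probe sets. The brighter one read 10.67, 11.16 and 10.76 in CRES-3, 10.57, 10.65 and 9.33 in CRES-1, and 10.78, 10.93 and 11.10 in RiPS2. It read 10.62, 10.58 and 10.77 in RiPS3, 10.86, 10.57 and 10.75 in RiPS1, and 10.62, 11.05 and 11.06 in ORMES23, against 5.82, 6.99 and 6.38 in the fibroblasts. Array C of CRES-1 stood below the other pluripotent arrays, and still above all fibroblast arrays. The gain over the fibroblasts was 3.78 in CRES-1 and 4.25 to 4.54 in the other 5 lines (SE 0.29 each), which corresponds to 13.8-fold in CRES-1 and 23.2-fold in RiPS2. Without array C of CRES-1 the difference of that line was 4.21, and DNMT3A was called under every alternative run.

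The dimmer DNMT3A probe set gave 10.43 to 10.76 as line means of the pluripotent lines and 5.38 in the fibroblasts, with log2 differences of 5.05 to 5.38 (SE 0.17). On that probe set CRES-1 array C read 10.29, beside 10.47 and 10.53 on arrays A and B of the same line. The low reading of the brighter probe set was thus not shared by the dimmer one. The 2 probe sets correlated at r = 0.97 over all 21 arrays and at r = 0.59 over the 18 pluripotent arrays.

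DNMT3L, which stimulates the de novo enzymes in germ cells and early embryos of the mouse, was below the testing limit on all 21 arrays. Its single probe set read 3.69 to 4.82 over all arrays, with line means of 4.23 in CRES-3, 3.91 in CRES-1, 4.11 in RiPS2, 4.18 in RiPS3, 4.61 in RiPS1 and 3.87 in ORMES23, against 4.26 in the fibroblasts. No fold or test is given at this level. With no array above background, the probe set was not shown to detect the transcript, so no level of DNMT3L is read from it.

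Of the maintenance genes, DNMT1 was read from a single probe set whose levels lay between 5.24 and 7.06. It was 6.33, 6.55 and 6.13 on the CRES-3 arrays, 5.72, 5.90 and 5.51 in CRES-1, and 5.88, 6.40 and 6.07 in RiPS2. It was 6.23, 6.70 and 6.73 in RiPS3, 7.0, 7.06 and 6.28 in RiPS1, and 5.66, 5.97 and 5.75 in ORMES23, against 5.46, 5.52 and 5.24 in the fibroblasts. RiPS1 and RiPS3 were highest, ORMES23 and CRES-1 lowest of the pluripotent lines, and CRES-1 overlapped the fibroblasts. The means of 5.41 in the fibroblasts, 5.71 in CRES-1 and 5.80 in ORMES23 lay not far above the array medians. This limits how exactly differences from them can be read, and there is no second probe set to set beside them.

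DNMT1 rose in RiPS1 by 1.38 (SE 0.20, 2.60-fold, adjusted p = 1.05e-05, limma) and in RiPS3 by 1.15 (SE 0.20, 2.22-fold, adjusted p = 7.68e-05). In CRES-3 the difference from the fibroblasts was 0.93 (adjusted p = 0.000559) and in RiPS2 0.71 (adjusted p = 0.00497), both short of 2-fold. In ORMES23 it was 0.39 (adjusted p = 0.100) and in CRES-1 0.30 (adjusted p = 0.209), and neither passed the test.

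Of the 7 tested genes, DNMT1 alone differed in level among the 6 pluripotent lines by limma's F test (adjusted p = 0.00499), a test that 17.1% of all genes passed. From highest to lowest the means were 6.78 in RiPS1, 6.55 in RiPS3, 6.34 in CRES-3, 6.12 in RiPS2, 5.80 in ORMES23 and 5.71 in CRES-1. Each pair of neighbours in this order overlapped in its arrays, and the differences between neighbours were 0.09 to 0.33.

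Set against the induced line of its sex, cloned CRES-1 had less DNMT1 than RiPS1. The log2 difference was -1.08 (SE 0.20, adjusted p = 0.00299, limma), and no CRES-1 array reached any RiPS1 array. This was the 1 call among 7 members in that comparison, in which 2.14% of all genes were called. The size sat at the 2-fold limit, and leaving out CRES-1 array C, RiPS1 array A or RiPS1 array B gave -0.98, -0.97 and -0.94, each under 2-fold with an adjusted p of at most 0.0236.

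RiPS1 minus ORMES23 was 0.99 for DNMT1 (SE 0.20, adjusted p = 0.00510), just under 2-fold. It reached 1.00 when arrays were centred on their medians, 1.08 without ORMES23 array B and 1.24 without RiPS1 array C, and was then called. In the other direction it was 0.85 without RiPS1 array B, and the highest adjusted p over the alternatives was 0.0555 (limma). RiPS2 minus RiPS1 was -0.66 (adjusted p = 0.0389) and RiPS3 minus RiPS1 was -0.23 (adjusted p = 0.588). For the female pair, CRES-3 minus RiPS3, the difference was -0.22 (SE 0.20, adjusted p = 0.939), with a 95% interval of -0.64 to 0.21. The contrast of cloned with induced line was tested between the male and the female pair as an interaction, added after the values had been seen. RiPS1 came from a fetus and RiPS3 from a donor 8 years old, so sex, donor age and line cannot be told apart here. For DNMT1 the male minus female difference was -0.86 (SE 0.28, adjusted p = 0.0922), which did not pass.

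UHRF1, which recognises hemimethylated DNA and recruits DNMT1, did not separate the pluripotent lines from the fibroblasts. Its level was 9.32, 9.07 and 9.52 in CRES-3, 9.03, 9.42 and 8.60 in CRES-1, and 9.33, 9.47 and 9.32 in RiPS2. It was 9.72, 8.87 and 8.89 in RiPS3, 8.90, 9.88 and 9.60 in RiPS1, and 10.04, 9.46 and 9.36 in ORMES23, against 10.25, 8.57 and 9.28 in the fibroblasts. The fibroblast arrays A and B held the highest and the lowest reading of all 21. The log2 differences lay between -0.35 in CRES-1 and 0.26 in ORMES23 (SE 0.35), and all 6 were uncalled, with adjusted p between 0.413 and 0.984. The widest 95% bounds over the 6 lines were -1.09 and 1.00, so a change of up to about 2-fold in either direction lies within the error. Without fibroblast array A, all 6 differences were positive, 0.09 to 0.70, and none was called. Without fibroblast array B, all 6 were negative, from -0.75 in CRES-1 to -0.14 in ORMES23, and again none was called. The sign thus depended on which fibroblast array was left out.

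Genes of DNA replication and the cell cycle moved with the fibroblast spread of UHRF1. The mean level of 10 such markers was 9.85, 7.72 and 8.86 on fibroblast arrays A, B and C, the same order as UHRF1, against 10.57 to 11.02 on the 18 pluripotent arrays. In each pluripotent line 9 of the 10 were called higher than in the fibroblasts, and TYMS was not. Over the 18 pluripotent arrays UHRF1 correlated with that mean at r = 0.69 and DNMT1 at r = 0.04. The other tested members lay between these, from 0.11 for TET2 to 0.45 for DNMT3A and 0.47 for DNMT3B. These are descriptions of arrays that share lines. The part of cell division in the differences between pluripotent lines and fibroblasts was not tested.

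**Figure D2:**
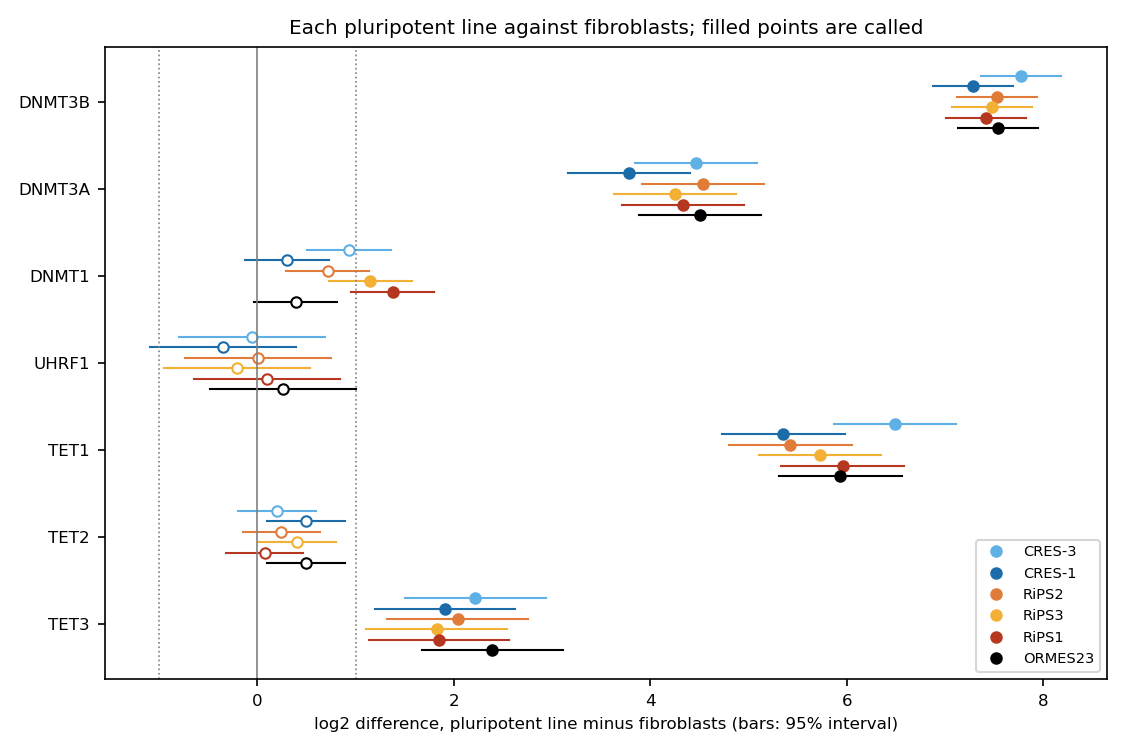
Log2 difference (horizontal axis) of each pluripotent line from the fibroblasts for the 7 tested genes, with 95% intervals, filled where called; dotted lines mark 2-fold. DNMT3B, DNMT3A, TET1 and TET3 are filled in all 6 lines, DNMT1 in RiPS1 and RiPS3, and UHRF1 and TET2 are open in every line.

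Among the erasers, TET1 rose in all 6 lines. Its brighter probe set read 10.92, 10.97 and 10.81 in CRES-3, 9.55, 9.99 and 9.74 in CRES-1, and 9.26, 10.35 and 9.89 in RiPS2. It read 9.86, 10.55 and 10.00 in RiPS3, 10.76, 10.58 and 9.76 in RiPS1, and 10.87, 10.14 and 10.01 in ORMES23, against 4.12, 4.74 and 4.37 in the fibroblasts. Every fibroblast array was under 5 and every pluripotent array above 9. The log2 difference was 5.35 in CRES-1 to 6.49 in CRES-3 (SE 0.30), a rise of at least 27.2-fold in CRES-1 and at least 59.7-fold in CRES-3.

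The other TET1 probe set gave line means of 7.20 to 8.29 in the pluripotent lines and 3.80 in the fibroblasts. The 2 probe sets followed each other across arrays, at r = 0.99 over 21 arrays and r = 0.98 over the 18 pluripotent arrays. The scatter between arrays of a line, such as array A of ORMES23 or array A of RiPS2, was thus seen by both.

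TET1 was the member called between the cloned lines. CRES-3 exceeded CRES-1 by 1.14 (SE 0.30, 2.20-fold, adjusted p = 0.0264, limma), the 1 call among 7 members where 2.61% of all genes were called, and the arrays did not overlap. The dimmer probe set gave 1.09 (SE 0.33, adjusted p = 0.0457), with 3.23% of all probe sets called. The call depended on all but 1 of the arrays involved. Leaving out CRES-1 array B kept it (1.25, adjusted p = 0.0441), while leaving out any other array of either line gave 1.03 to 1.18 with adjusted p between 0.0575 and 0.114.

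From highest to lowest, TET1 means were 10.90 in CRES-3, 10.37 in RiPS1, 10.34 in ORMES23, 10.14 in RiPS3, 9.83 in RiPS2 and 9.76 in CRES-1. Only CRES-3 stood clear of its neighbour in this order. The F test among the 6 lines did not pass (adjusted p = 0.0701). It passed without ORMES23 array A (0.0467), RiPS1 array C (0.0311) or RiPS2 array B (0.0315), and the adjusted p was up to 0.167 when other arrays were left out. CRES-3 minus RiPS3 was 0.76 (SE 0.30, adjusted p = 0.495), and CRES-1 minus RiPS1 was -0.60 (SE 0.30, adjusted p = 0.243). The interaction between the male and the female pair was -1.37 for TET1 (SE 0.42, adjusted p = 0.0700) and did not pass. In it, too, sex, donor age and line cannot be told apart.

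**Figure D3:**
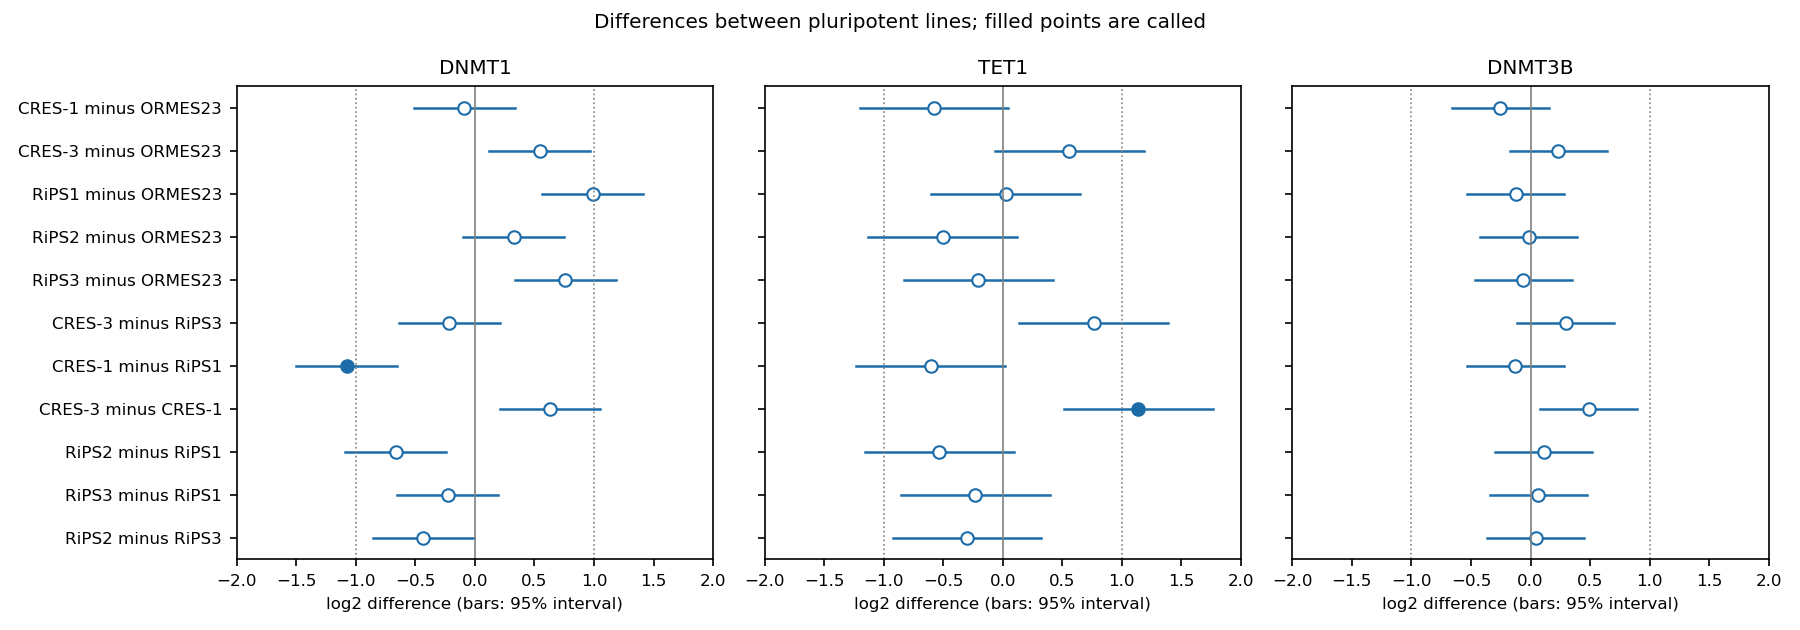
Log2 difference (horizontal axis) with 95% intervals for DNMT1, TET1 and DNMT3B in the 11 comparisons between pluripotent lines, filled where called; dotted lines mark 2-fold. DNMT1 is filled in CRES-1 minus RiPS1 and TET1 in CRES-3 minus CRES-1, and DNMT3B lies within 0.49 of 0 throughout.

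TET3 rose in all 6 lines, with the widest spread of the members in the fibroblasts. Its brightest probe set read 9.47, 9.44 and 9.54 in CRES-3, 8.70, 9.22 and 9.60 in CRES-1, and 9.0, 9.44 and 9.46 in RiPS2. It read 9.38, 9.0 and 8.89 in RiPS3, 8.94, 8.92 and 9.47 in RiPS1, and 9.34, 9.92 and 9.70 in ORMES23, against 6.20, 8.06 and 7.53 in the fibroblasts (SD 0.96). All pluripotent arrays lay above all fibroblast arrays. The log2 differences were 1.82 in RiPS3 to 2.39 in ORMES23 (SE 0.34), or 3.54-fold to 5.24-fold. Without fibroblast array A they were 1.29 to 1.86, and called in all 6 lines. TET3 was lowest on the fibroblast array where UHRF1 and the replication markers were highest, and highest on the array where they were lowest. This was not particular to TET3. On their brighter probe sets DNMT3A and TET1 had the same order of fibroblast arrays as TET3, and DNMT3B had the reverse. The dimmer probe sets did not show that order. On fibroblast arrays A, B and C they read 5.61, 5.65 and 4.89 for DNMT3A and 3.52, 3.72 and 4.17 for TET1. All TET1 readings in the fibroblasts were under 5.

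The 3 probe sets of TET3 differed. The second in brightness gave line means of 7.06 to 7.74 in the pluripotent lines against 5.74 in the fibroblasts, with differences of 1.32 to 2.01, called in all 6. It followed the brightest one at r = 0.97 over 21 arrays. The third stayed level, at 5.80 to 6.01 in the pluripotent lines against 5.99 in the fibroblasts. Its differences lay between -0.19 and 0.02 (SE 0.13), with none called and adjusted p between 0.216 and 0.914, and it did not follow the brightest one (r = -0.29 over 21 arrays). What the third probe set measures was not tested. With the mean of the 3 probe sets in place of the brightest, the TET3 difference was 0.98 to 1.42, and the call was lost in RiPS3, where it was 0.98.

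**Figure D4:**
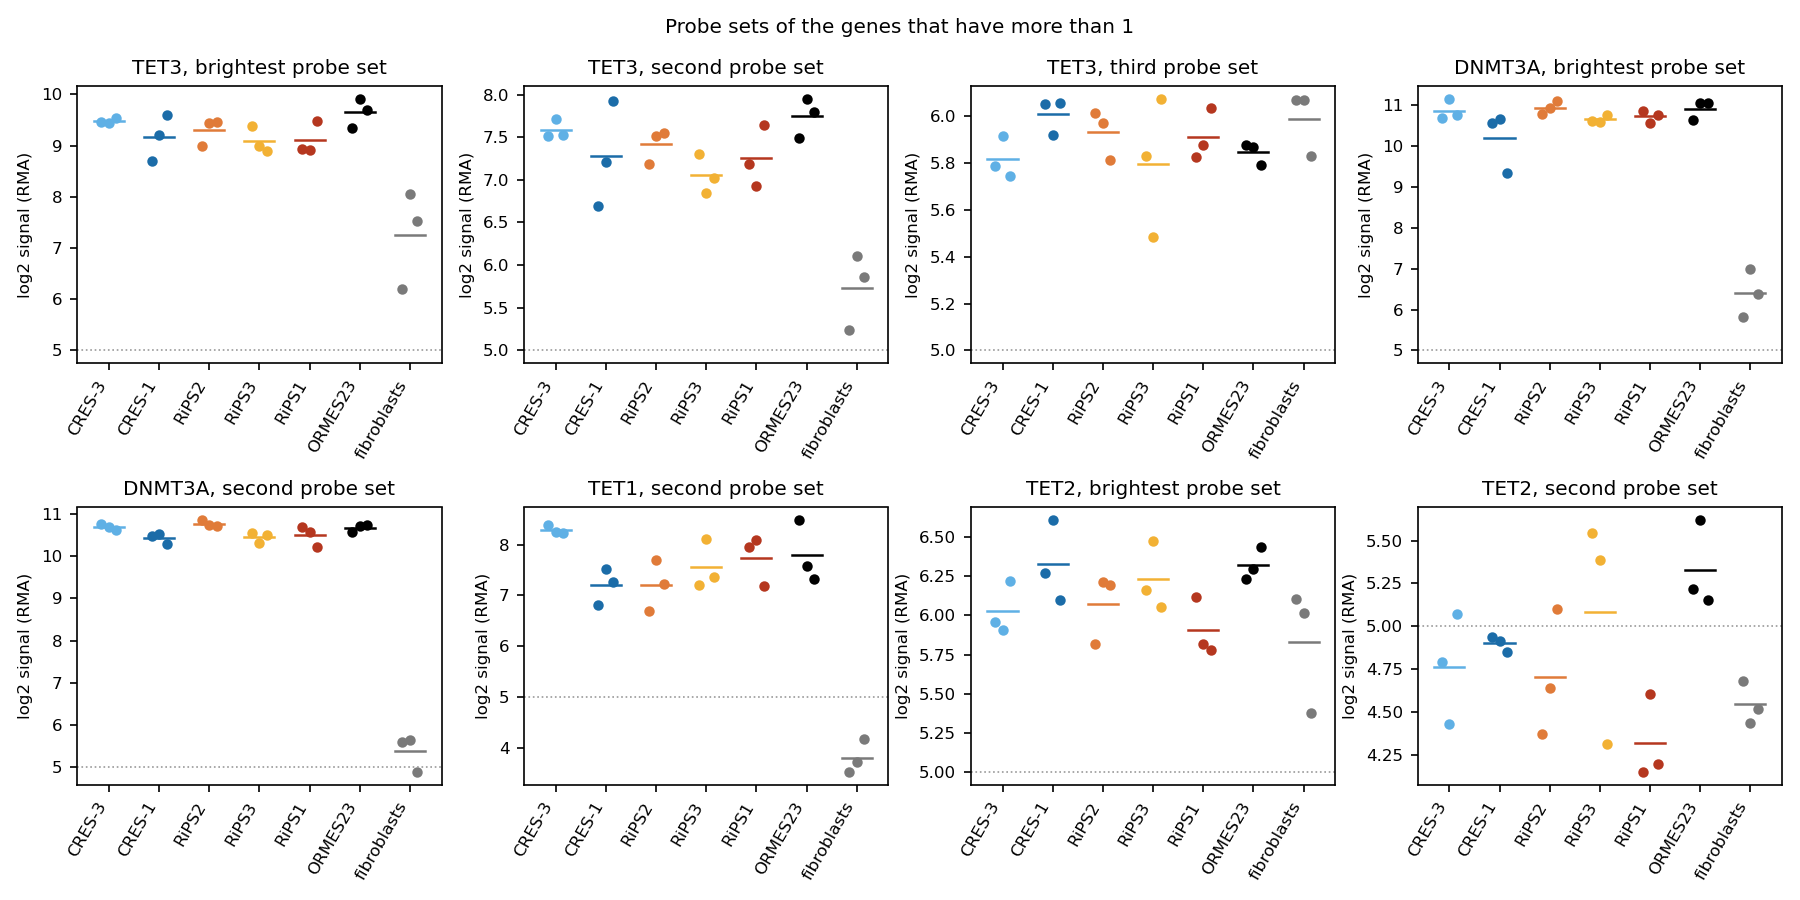
Log2 signal on the vertical axis of each array (points) and line means (bars) for probe sets of TET3, DNMT3A, TET1 and TET2, with pluripotent lines left of the fibroblasts and the dotted line at 5. The brightest and second probe sets of TET3 drop in the fibroblasts while the third stays at 5.80 to 6.01 in all lines, and the low array C of CRES-1 appears on the brightest DNMT3A probe set alone. The vertical scale differs between panels.

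TET2 stayed close to its fibroblast level. The brighter of its 2 probe sets read 5.96, 5.91 and 6.22 in CRES-3, 6.27, 6.61 and 6.10 in CRES-1, and 5.82, 6.21 and 6.20 in RiPS2. It read 6.17, 6.47 and 6.06 in RiPS3, 6.12, 5.82 and 5.78 in RiPS1, and 6.23, 6.30 and 6.44 in ORMES23, against 6.11, 6.01 and 5.38 in the fibroblasts. Only ORMES23 cleared all fibroblast arrays. The differences were 0.07 in RiPS1 to 0.49 in CRES-1 and ORMES23 (SE 0.19), and none was called. The adjusted p was 0.0309 in CRES-1 and 0.0294 in ORMES23, with a fold of 1.41 in both. On this probe set the upper 95% bound over the 6 lines was 0.89, under the 2-fold limit.

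The dimmer TET2 probe set lay near the testing limit, with line means of 4.76 in CRES-3, 4.90 in CRES-1, 4.70 in RiPS2, 5.08 in RiPS3, 4.32 in RiPS1 and 5.33 in ORMES23, against 4.54 in the fibroblasts. Against the fibroblasts, which averaged under 5, it gave 0.79 in ORMES23 (SE 0.26, adjusted p = 0.0152, limma), which was not called. Across all probe sets fitted, it was lower in RiPS1 than in ORMES23 (-1.01, SE 0.26, adjusted p = 0.0262, limma), a comparison in which 2.12% of the 30723 probe sets were called. RiPS1 averaged under 5 there, so the size of this difference is not a measured ratio. The brighter probe set gave -0.42 (adjusted p = 0.208) for the same lines.

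The other comparisons between pluripotent lines called 0 of the 7 members by limma. Against ORMES23 this held for CRES-3 (0.996% of all genes called, 1 member at an unadjusted p under 0.05), CRES-1 (0%, 1 member), RiPS2 (0.458%, 0 members), RiPS3 (0.763%, 1 member) and RiPS1 (2.40%, 2 members). It also held for CRES-3 minus RiPS3 (0.0359%, 1 member), RiPS2 minus RiPS1 (3.61%, 1 member), RiPS3 minus RiPS1 (2.44%, 0 members) and RiPS2 minus RiPS3 (1.18%, 1 member). The percentages count calls, a stricter limit than that of the member counts. Against ORMES23, 1886 of the 11143 genes had an unadjusted p under 0.05 (limma) in CRES-3 and 1270 in CRES-1. The number was 1327 in RiPS2, 1627 in RiPS3 and 2315 in RiPS1. It was 881 in CRES-3 minus RiPS3, 3020 in RiPS2 minus RiPS1, 2355 in RiPS3 minus RiPS1 and 2031 in RiPS2 minus RiPS3. DNMT3A had its lowest pluripotent mean in CRES-1, 0.73 below ORMES23 (95% interval -1.35 to -0.11, adjusted p = 0.364). Without CRES-1 array C, which read 9.33, the difference was -0.30. The dimmer DNMT3A probe set had means of 10.43 in CRES-1 and 10.67 in ORMES23. The intervals of UHRF1 in CRES-1 minus ORMES23 and of TET3 in RiPS3 minus ORMES23 reached -1.35 and -1.28, so 2-fold differences of these genes lie within the error of 3 arrays a line.

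Across arrays, the genes that followed the members most closely were found by Pearson's r over all 21 arrays, which share 7 lines, so that the contrast with the fibroblasts dominates. For DNMT3B they were IGF2BP3, SOX2 and LOC696048 (r = 0.997 each). For TET1 they were LOC707041, STRBP (both 0.991) and PRPF38B (0.990), and for DNMT3A LOC695854 (0.981), POU2F1 (0.980) and KCTD8 (0.978). For TET3 they were TOX (0.954), LOC706619 (0.951) and ASF1A (0.950), and for DNMT1 GNB5 (0.920), POU2AF3 (0.900) and XAF1 (0.897). The likeness of DNMT3B to SOX2 was 0.27 within the 18 pluripotent arrays, while that of DNMT1 to GNB5 was 0.89 there. Among the members, DNMT3B and TET1 had r = 0.98 over 21 arrays and 0.68 over the 18 pluripotent arrays, and DNMT1 and TET3 had 0.36 and -0.41.

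The genes that work around these enzymes showed a mixed picture against the fibroblasts. Among partners of maintenance methylation, 2 of 6 tested genes rose in all 6 lines and none fell. HELLS, a chromatin remodeller needed for normal DNA methylation, gained 3.73 to 3.89 (SE 0.33), with means of 10.84 to 11.00 in the pluripotent lines and 7.11 ± 1.12 (SD, n = 3) in the fibroblasts. The histone deacetylase HDAC2 gained 1.75 to 2.07. PCNA, the replication clamp to which DNMT1 binds, was called in RiPS2 (1.03) and ORMES23 (1.04) and not in the other 4 lines (0.39 to 0.78).

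Of 7 tested factors that guide or protect methylation, 3 rose and 1 fell in all 6 lines. ZNF445, a zinc finger protein that protects imprints, had a mean gain of 1.58. The histone methyltransferase NSD1 gained 1.37 and TRIM28, the corepressor of such zinc finger proteins, gained 1.23. KDM1B, a histone demethylase needed for imprints in mouse oocytes, fell by 2.61 on average, with means of 5.98 to 6.70 in the pluripotent lines and 8.93 in the fibroblasts.

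Readers of methylated CpG went in both directions, with 1 of 5 tested genes higher and 3 lower in all 6 lines. The list named 11 readers, of which 6 had a probe set. MBD2, a methyl-CpG binding protein of the NuRD complex, rose by 5.22 to 5.58 (SE 0.16), with line means of 10.29 to 10.66 in the pluripotent lines against 5.08 in the fibroblasts. The zinc finger readers ZBTB33, ZBTB38 and ZBTB4 fell by 1.95, 1.83 and 1.80 on average. In RiPS3 the ZBTB33 difference was -1.02 (adjusted p = 0.0438), at the edge of the call. MBD4, a mismatch glycosylase, was called in none of the 6.

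Among 10 tested genes of base excision repair and its recruitment, the uracil glycosylase UNG (mean gain 2.57), the strand break sensor PARP1 (2.24) and the ligase LIG3 (1.43) rose in all 6 lines. None of the 10 fell in all 6. Of 6 cofactors and partners of the TET enzymes, CXXC4, a binding partner of TET2, alone rose in all 6 lines, by 1.04 in RiPS2 to 1.99 in ORMES23. Of 7 genes of the S-adenosylmethionine cycle, which supplies the methyl donor, none was called in all 6 lines. AHCY, which removes the product inhibitor of methyltransferases, gained 1.08 on average and was just under 2-fold in the lowest line (0.96). The median difference over each of these lists, as means of the 6 lines, was 0.76 for maintenance partners, 1.14 for guiding factors, -1.80 for readers, 0.51 for repair, 0.70 for TET partners and 0.17 for the methyl donor cycle, against 0.03 over all genes. These medians cover the tested genes alone, while the lists named 10, 11, 11, 13, 9 and 10 genes in that order. A share of 12.7% of all genes rose and 10.5% fell in all 6.

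Of 10 germline genes known for methylated promoters in somatic cells that had a probe set, 9 stayed under the testing limit, and the mean level of the 10 was 3.33 to 3.54 on the pluripotent arrays and 3.44 to 3.50 on the fibroblast arrays. TDRD1, a Tudor protein of the piRNA pathway, was the 1 gene that passed the filter, but it averaged under 5 in every line, so no difference is given.

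**Figure D5:**
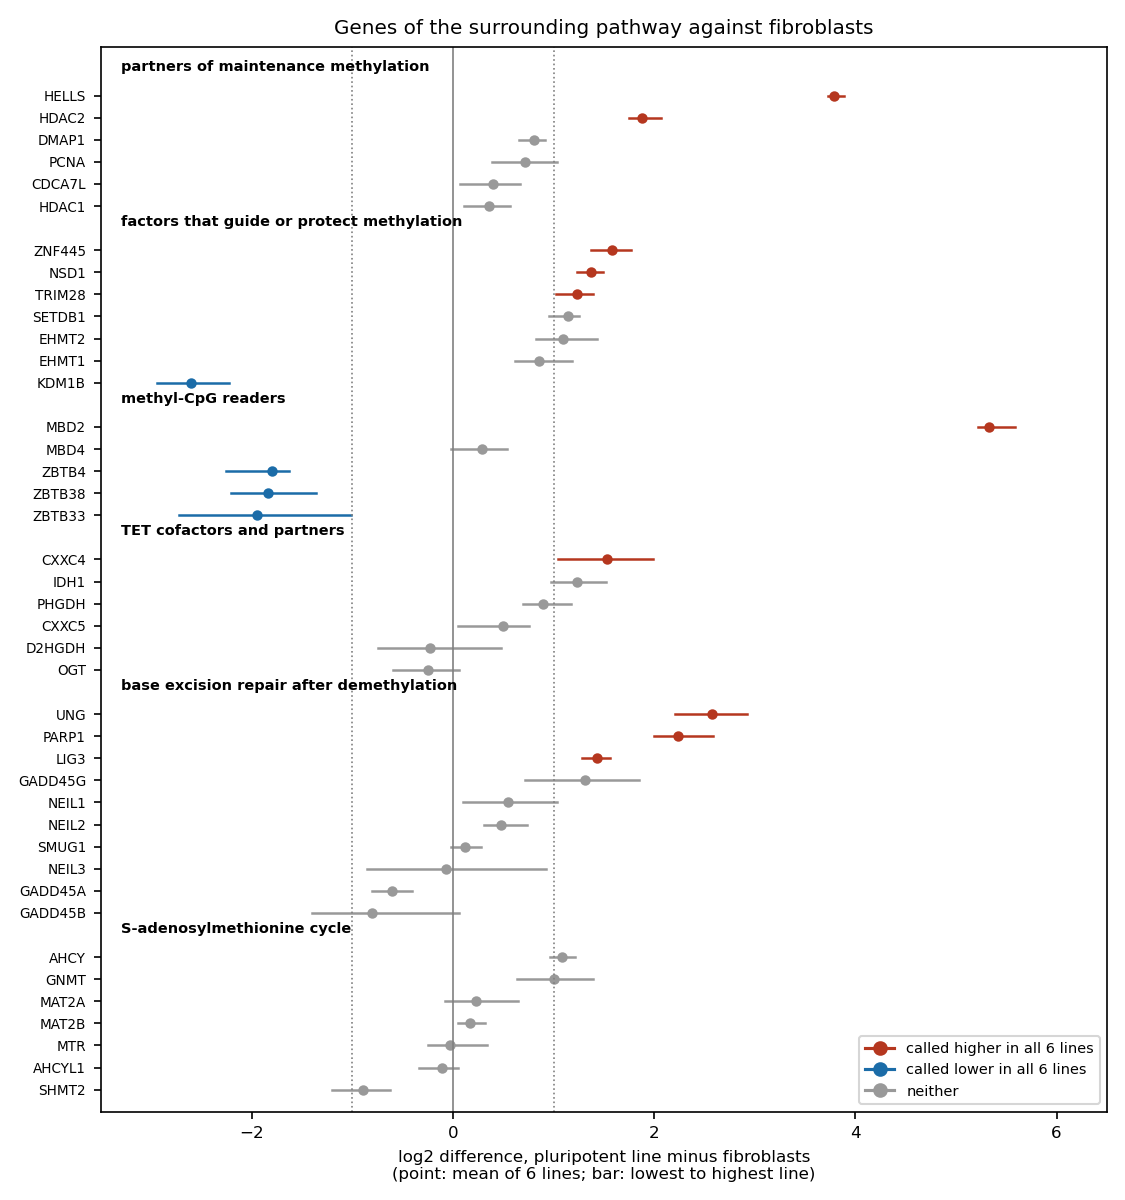
Log2 difference (horizontal axis) from the fibroblasts for 41 tested pathway genes, as the mean of the 6 pluripotent lines (points) and the range over lines (bars), grouped by role; dotted lines mark 2-fold. MBD2, HELLS, UNG and PARP1 lie furthest to the right, and KDM1B and the zinc finger readers ZBTB33, ZBTB38 and ZBTB4 lie to the left of -1 in all lines.

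Between pluripotent lines, 4 of the 42 tested genes of these lists were called in at least 1 of 11 comparisons. The calls were 3 of 42 in CRES-1 minus RiPS1 (7.14%, against 2.14% of all genes), 2 in RiPS1 minus ORMES23 (4.76%, against 2.40%), and 1 each (2.38%) in CRES-3 minus CRES-1, RiPS2 minus RiPS1 and RiPS2 minus RiPS3 (against 2.61%, 3.61% and 1.18%). The other 6 comparisons called none of the 42. NEIL3, a glycosylase of oxidised bases, was lower in CRES-1 than in RiPS1 (-1.68) and higher in RiPS1 than in ORMES23 (1.78). D2HGDH, which clears the TET inhibitor 2-hydroxyglutarate, gave -1.23 and 1.16 in the same comparisons. Both had their highest mean in RiPS1, as DNMT1 did, and these 2 comparisons share the RiPS1 arrays. ZBTB33 was lower in CRES-1 than in RiPS1 (-1.47), in RiPS2 than in RiPS1 (-1.43) and in RiPS2 than in RiPS3 (-1.66). GADD45B, a stress gene linked to active demethylation, was lower in CRES-3 than in CRES-1 (-1.46).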

How the data were processed

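Messenger RNA of 7 lines, 3 arrays each, was measured on Affymetrix rhesus arrays. The authors deposited 1 log2 signal per probe set and array, computed with RMA per the submitters' processing notes; the RMA version is not given in the sources used here. Of the probe sets, 24969 carried 1 symbol, 361 several and 27535 none; gene tests used only the first kind. The probe set brightest on average stood for each of 14133 genes, and the 11143 genes reaching log2 5 on 3 or more arrays were tested. A linear model with 1 mean per line was fitted to all 21 arrays with limma 3.58.1 in R 4.3.3 (14 residual degrees of freedom), after it was tested on simulated data. Tests were two-sided. A second fit used all 30723 probe sets that passed. The 17 comparisons shared this fit. The number of arrays limits the precision.

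The members and the 7 pathway lists were chosen with earlier results of these data known. Named were all members, up to 2 genes per list in each direction called in all 6 comparisons with fibroblasts, list genes called between pluripotent lines, and the 3 genes most like each member that varied by log2 1 or more; TRIM28, LIG3, MBD4, PCNA, ZBTB4, AHCY, TYMS and the markers were named after their values were seen. Same-letter arrays deviated together in all 3 letters for 1 of 21 pairs of lines, CRES-1 and RiPS1 (r = 0.32, 0.33 and 0.35); the labels do not say what a letter shares. Alternatives were no filter, median centring, quantile normalization, the mean of probe sets, a replicate block, the compared lines alone, no fold limit, each other probe set, and leaving out each array.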

Additional observations from a re-analysis of the deposited data

How the results depend on the processing

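Of 1639 single-gene values under the alternatives, 1613 kept their side of the threshold, among them 60 uncalled values that changed sign, 10 lost a call, 11 gained one and 5 turned direction. The calls of DNMT3B, DNMT3A and TET1 against the fibroblasts held under all alternatives run. The third TET3 probe set gave the opposite sign to the brightest in CRES-3 (-0.17), RiPS2 (-0.056), RiPS3 (-0.19), RiPS1 (-0.076) and ORMES23 (-0.14), none of them called. The number of members called in RiPS1 minus ORMES23 was 0, and 1 with median centring or no fold limit; leaving out an array gave 0 to 1. In RiPS2 minus RiPS1 it was 0, and 1 with no fold limit. In CRES-1 minus RiPS1 and in CRES-3 minus CRES-1 it was 1, and leaving out an array gave 0 to 1. The F test among pluripotent lines passed 1 member, 2 with no filter on dim genes, and 1 to 2 when an array was left out. The second was DNMT3L with no filter, which is not read because all its arrays lie under log2 5, and TET1 where an array was left out; the cause was not tested. Deviations of same-letter arrays correlated between -0.41 and 0.44 over 63 pairs (median 0.01), so the replicate letters did not pair the arrays of the 7 lines as a whole. With the letter as a replicate block no count of members changed. CRES-1 and RiPS1 were the 1 of 21 pairs of lines whose arrays deviated together in every letter. Whether the letters pair these arrays was not tested. In this comparison the block gave 1 member and an adjusted p of 0.000842 for DNMT1 (limma). With these 2 lines alone, a fit added after seeing the data, it was 0.0129 with the block and 0.0385 without it. Values near log2 5, such as DNMT3L, the dimmer TET2 probe set and DNMT1 in the fibroblasts, limit what can be read.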
